A study of Arabidopsis thaliana with 12 samples.

Results

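Hypoxia and arsenate, the single stresses of a study on Arabidopsis thaliana roots, were set directly against each other, without the control arrays entering the difference. The 6 arrays were the 3 titled as hypoxia treatment and the 3 titled as arsenic treatment among 12 arrays in all, and they were described over 16548 genes, each read from 1 row among the 38408 rows of the table. All plants were wild type of the accession Col-0, grown in hydroponic culture for 32 days and then treated for 7 days, so that they were 39 days old at harvest. The arsenic group received 250 µM arsenate (as Na2HAsO4), the hypoxia group received hypoxic nutrient medium whose oxygen content is not stated, the combination group received both, and the control group received neither. Each group had 3 biological replicates, which the study calls completely independent. The RNA came from bulk root tissue, in which fewer cells of a type and less RNA per cell cannot be told apart.

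In plants, low oxygen stabilises group VII ethylene response factors, which switch on a core set of genes for fermentation, for sugar use and for several proteins of unknown function. Arsenate resembles phosphate, enters roots through phosphate transporters and is reduced to arsenite, which binds thiol groups of proteins. Roots are known to answer it with glutathione-dependent detoxification, with export of arsenite and with chaperones for damaged proteins.

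Values are log2 signals, so a difference of 1 is a doubling. A gene was called when the adjusted p of the hypoxia minus arsenic difference (limma, two-sided, Benjamini-Hochberg over all genes) was under 0.05. Of the 16548 genes, 3638 (22.0%) were called. In hypoxia 1601 genes were higher than in arsenate (9.67%) and 2037 were lower (12.3%), and the median difference over all genes was 0.07. The large differences leaned the other way. Among called genes, 581 (3.51%) were higher and 696 (4.21%) were lower by at least 1, but 47 (0.284%) were higher and 18 (0.109%) lower by at least 3. The 3 hypoxia arrays did not overlap the 3 arsenic arrays in 6075 genes (36.7%), and 3517 of the called genes were among these. Called genes were fewer among dim signals: in the 4137 dimmest genes 180 were higher and 48 lower, and in the 4137 brightest 553 were higher and 801 lower.

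Over all genes, arsenic arrays correlated with each other at r from 0.983 to 0.991, hypoxia arrays at 0.972 to 0.980, and arsenic with hypoxia arrays at 0.941 to 0.954. These correlations are across genes, which are not independent replicates. The median over genes of the SD between replicates was 0.232 for hypoxia and 0.183 for arsenic. Of the markers of root cell types, those of endodermis, phloem, root cap, meristem and root identity had no measured gene, so the root label could be set only against a few genes. The green tissue markers had 2 measured genes, and neither was called. RCA (Rubisco activase) read 5.53, 5.2 and 5.48 in arsenic and 5.81, 5.98 and 6.01 in hypoxia (adjusted p = 0.0642, limma), and PSAN (a photosystem I subunit) read 2.85, 3.1 and 3.06 and 3.47, 3.37 and 2.97 (adjusted p = 0.47). The xylem marker GUT2 and the pericycle marker LBD16 were not called either, at differences of 0.08 and 0.02.

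**Figure D1:**
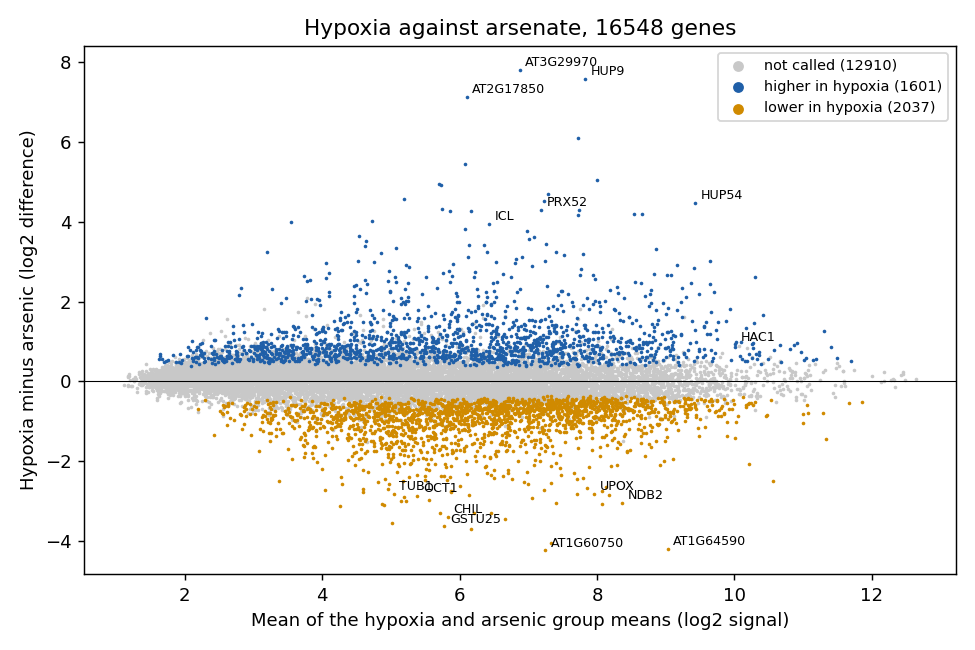
Hypoxia minus arsenic log2 difference (vertical axis) against the mean of the 2 group means (horizontal axis, log2 signal) for 16548 genes, each a point, 3 arrays a group. Blue points are the 1601 genes called higher in hypoxia and orange points the 2037 called lower, and HUP9, AT3G29970 and AT2G17850 stand above all other genes at differences of over 7.

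Every measured gene of the core low-oxygen response, 9 in number, was higher in hypoxia than in arsenate, where 9.67% of all genes were, and the median difference was 4.19. The list had 48 entries, so most of it was not measured. All 9 stayed called when any 1 hypoxia or arsenic array was left out. HUP9 (AT5G10040), a hypoxia-induced gene of unknown function, read 4.72, 3.57 and 3.82 in the arsenic arrays and 11.04, 11.9 and 11.93 in the hypoxia arrays. Every hypoxia array lay above every arsenic array, and the difference was 7.59 (SE 0.29, 193-fold, adjusted p = 8.83e-09, limma). HUP54 (AT4G27450), another gene of this kind, read 7.17, 7.33 and 7.06 in arsenic and 11.72, 11.67 and 11.61 in hypoxia, a difference of 4.48 (SE 0.13, adjusted p = 4e-10). The hypoxia values of HUP54 lay close together, and the control arrays (7.74, 7.82 and 7.89) lay above the arsenic arrays and far below the hypoxia arrays. The gene AT3G03270, given here as HUP26 and of the universal stress protein kind, differed by 4.19 (SE 0.17), and HUP29 (AT4G24110) by 4.32 (SE 0.48).

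The regulators and enzymes of the same list differed over a wider range. CML38 (AT1G76650), a calmodulin-like protein, read 5.05, 3.03 and 3.1 in arsenic and 7.87, 8.22 and 7.91 in hypoxia, a difference of 4.28 (SE 0.73, adjusted p = 0.0014). Its control arrays read 7.55, 4.88 and 3.94, so control 1 stood near the hypoxia arrays and control 3 nearer the arsenic arrays. HRA1 (AT3G10040), a transcription factor that restrains the low-oxygen response, read 4.33, 4.56 and 4.38 in arsenic and 5.32, 7.92 and 8.88 in hypoxia (difference 2.95, SE 0.68, adjusted p = 0.00847). Hypoxia 1 was the low array for HRA1, although still above all arsenic arrays, and without it the difference was 3.98 (adjusted p = 6.74e-05). Of the fermentation enzymes, PDC2 (AT5G54960, pyruvate decarboxylase) differed by 2.13, LDH1 (AT4G17260, lactate dehydrogenase) by 1.39 and AlaAT1 (AT1G17290, alanine aminotransferase) by 1.5. For AlaAT1 the arsenic arrays (8.97, 8.84 and 9.2) lay above the control arrays (8.46, 8.51 and 8.29) and below the hypoxia arrays (10.8, 10.35 and 10.36).

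The largest difference of all belonged to AT3G29970, a gene with no name in the tables, which read 3.06, 2.96 and 2.89 in arsenic and 10.68, 11.02 and 10.63 in hypoxia. The difference was 7.81 (SE 0.15, adjusted p = 5.12e-12, limma). AT2G17850, also unnamed, read 2.58, 2.32 and 2.7 in arsenic and 8.54, 10.34 and 10.12 in hypoxia (difference 7.13, SE 0.39). In both genes the arsenic arrays lay in the range of the control arrays or just below it.

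**Figure D2:**
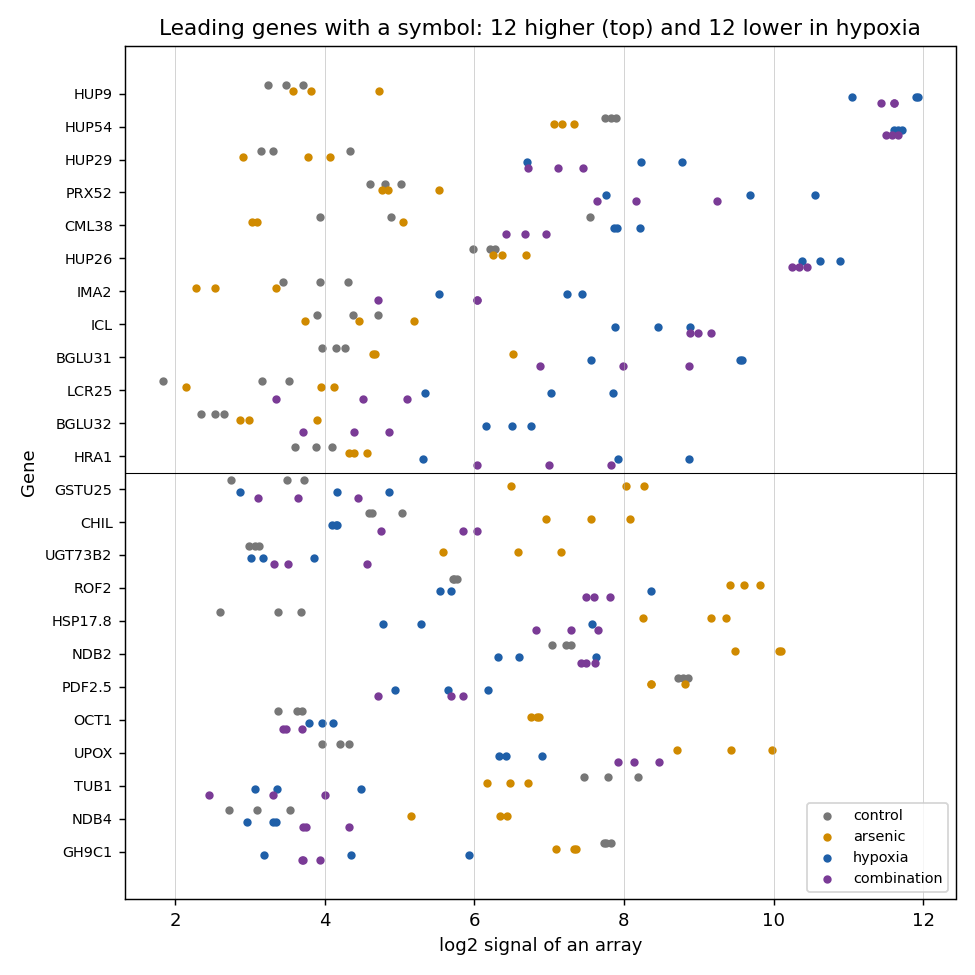
log2 signal (horizontal axis) of every array for the 12 genes with a symbol that were highest (above the line) and the 12 that were lowest (below the line) in hypoxia against arsenic, coloured by group, 3 points a group. No hypoxia point overlaps an arsenic point in any of the 24 genes, as the choice of these genes required, and for HUP9, HUP54, HUP26 and ICL the combination points lie with the hypoxia points.

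Outside the core list, genes of carbon use and of energy metabolism were among the higher ones. ICL (AT3G21720), isocitrate lyase, which lets the glyoxylate cycle turn fatty acid carbon into sugar precursors, read 5.19, 3.74 and 4.45 in arsenic and 8.88, 8.45 and 7.88 in hypoxia (difference 3.94, SE 0.34, adjusted p = 1.34e-05, limma). The list of carbon starvation and the glyoxylate cycle did not move as 1 group: of its 6 measured genes ICL was higher, 3 were lower and 2 were not called. Its called share was 66.7%, against 22.0% of all genes. The 3 lower genes, ATG8H (-1.39), ATG8B (-1.11) and APG8A (-0.51), encode ATG8 proteins, which coat the membranes of autophagy. ATG8B read 8.19, 7.99 and 8.4 in arsenic, 6.92, 7.58 and 6.76 in hypoxia and 6.3, 6.57 and 6.59 in control, so the arsenic arrays were the high ones. APG8A lost its call when any hypoxia array or arsenic 3 was left out (adjusted p 0.0592 to 0.155), with the 6 arrays alone (0.0944) and with quantile normalization again (0.0539).

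In mitochondrial respiration and sugar metabolism 3 of 5 measured genes were higher, 1 was lower and 1 was not called. The called share was 80.0%, against 22.0% of all genes, and the median was 0.9, against 0.07. GAPC2 (AT1G13440), the glycolytic glyceraldehyde-3-phosphate dehydrogenase that also serves as a reference gene, read 10.45, 10.75 and 10.83 in arsenic, 11.2, 11.3 and 11.24 in control and 11.95, 11.86 and 11.98 in hypoxia, a difference of 1.25 (SE 0.14, adjusted p = 7e-05). The control arrays of GAPC2 lay between the stresses, so it did not serve here as a stable reference. PPDK (AT4G15530, pyruvate orthophosphate dikinase) was higher by 1.38 and the sugar transporter SWEET2 (AT3G14770) by 0.9. The call of PPDK was lost without hypoxia 2 (adjusted p = 0.0503), and that of SWEET2 without hypoxia 2, hypoxia 3 or any 1 arsenic array (0.0554 to 0.134). SDH1-1 (AT5G66760), a subunit of succinate dehydrogenase in the respiratory chain, was lower by a difference of -1.02 (SE 0.15, adjusted p = 0.000468), with 10.55, 10.56 and 10.47 in arsenic and 9.63, 9.46 and 9.43 in hypoxia. The reference gene PEX4 was not called (difference 0.28).

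The iron deficiency genes went both ways, with 3 of 7 higher, 2 lower and 2 not called (71.4% called against 22.0% of all genes). IMA2 (AT1G47395) and IMA1 (AT1G47400) encode small peptides that promote iron uptake. IMA2 read 3.35, 2.53 and 2.27 in arsenic and 5.52, 7.44 and 7.24 in hypoxia (difference 4.02, SE 0.49, adjusted p = 0.000158), and IMA1 differed by 2.72 (SE 0.4). Hypoxia 1 was the lowest hypoxia array for both peptides, and the arsenic arrays of IMA2 lay below the control arrays (4.31, 3.44 and 3.94). The transcription factor PYE (AT3G47640) was higher by 0.78, a call lost without hypoxia 3 (adjusted p = 0.0548) or arsenic 2 (0.0595). BGLU42 (AT5G36890), a beta-glucosidase that acts in the release of iron-mobilising coumarins, was lower, with 9.46, 9.57 and 9.34 in arsenic and 6.94, 7.06 and 6.43 in hypoxia (difference -2.65, SE 0.32). BHLH101 (AT5G04150), an iron-deficiency transcription factor, was lower by a difference of -1.18 (adjusted p = 0.027), a call lost with the 6 arrays alone (0.0755) and without hypoxia 1 (0.0741), hypoxia 2 (0.0698) or arsenic 2 (0.0724). Without arsenic 2, the highest array for BHLH101, the difference was -0.69. S8H, which makes the iron-mobilising coumarin fraxetin, and ILR3 were not called.

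A few wall peroxidases and beta-glucosidases were among the higher genes. PRX52 (AT5G05340), a wall peroxidase that acts in lignin formation, read 5.52, 4.76 and 4.84 in arsenic and 10.56, 9.68 and 7.76 in hypoxia (difference 4.29, SE 0.57, adjusted p = 0.000259, limma). Peroxidase 71 (AT5G64120), of the same class, was higher by 2.48, and these were the 2 called genes among 7 measured class III peroxidases, a share (28.6%) near that of all genes (22.0%). The beta-glucosidases BGLU31 (AT5G24540) and BGLU32 (AT5G24550) were higher by 3.62 (SE 0.62) and 3.22 (SE 0.3). They are close paralogs, and each may hybridise to the other's probes. BGLU31 read 6.52, 4.64 and 4.67 in arsenic, with arsenic 1 the high array, and 9.58, 9.55 and 7.57 in hypoxia. The beta-glucosidase family as a whole split evenly, with 5 higher, 6 lower and 13 not called of 24 genes (45.8% called, median -0.02), and its differences spanned -2.65 (BGLU42) to 3.62 (BGLU31).

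Of 73 measured defensin-like genes, which encode small cysteine-rich proteins, 11 were higher, 2 were lower and 60 were not called (median 0.23, against 0.07 for all genes). The called share was below the 22.0% of all genes, but these genes were dim, with a median signal per array of 2.2 to 2.67. Of the 4137 dimmest genes, 5.51% were called, with 180 higher and 48 lower (median 0.15). Against these, the called share of the defensin-like genes was higher, and the lean towards higher values in hypoxia was common to both. LCR25 (AT4G29305) read 4.12, 2.14 and 3.94 in arsenic and 5.34, 7.85 and 7.03 in hypoxia (difference 3.34, SE 0.69, adjusted p = 0.00455). The defensin PDF2.5 (AT5G63660) went the other way, with 8.36, 8.36 and 8.81 in arsenic and 4.93, 6.18 and 5.64 in hypoxia (difference -2.93, SE 0.32, adjusted p = 6.82e-05). Its control arrays (8.73, 8.86 and 8.79) lay with the arsenic arrays. With quantile normalization again 6 defensin-like genes were higher, and without arsenic 3 there were 3. None of the 4 measured genes of the jasmonate, salicylate and camalexin list, PDF1.2, PDF1.2b, PDF1.3 and JMT, was called, with differences between -0.12 and 0.29.

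Calcium and transcription factor genes gave single large differences. CML41 (AT3G50770), a calmodulin-like protein, was higher by 1.68 (SE 0.21) and CML42 (AT4G20780) was lower by a difference of -0.99, a call lost without hypoxia 2 (adjusted p = 0.0767) or arsenic 2 (0.0686). WRKY22 (AT4G01250), a transcription factor of defence and submergence responses, read 7.29, 6.9 and 7.09 in arsenic, 8.18, 8.54 and 8.36 in hypoxia and 7.03, 6.94 and 6.67 in the combination. Hypoxia was the high group for WRKY22 (difference 1.26, SE 0.17, adjusted p = 0.000255, limma), and the combination lay below the midpoint of the single stresses by a difference of -0.85 (adjusted p = 0.00602). In ethylene signalling, the transcription factor EIN3 was higher by 0.61 and RTE1, a regulator of the receptor ETR1, was lower by a difference of -1.24. Of 11 auxin genes 3 were higher and 1 was lower (36.4% called against 22.0% of all genes). LBD29 (AT3G58190), a transcription factor of lateral root initiation, read 4.23, 4.69 and 4.78 in arsenic and 7.16, 7.28 and 7.18 in hypoxia (difference 2.64, SE 0.5, adjusted p = 0.00276). In the combination LBD29 read 7.28, 4.59 and 4.91, where array 1 stood with the hypoxia arrays and the other two with the arsenic arrays.

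Several genes of detoxification and oxidative stress were higher in arsenate. GSTU25 (AT1G17180), an enzyme of the tau class that couples glutathione to toxic compounds, read 8.02, 6.48 and 8.27 in arsenic and 4.86, 4.16 and 2.87 in hypoxia. All hypoxia arrays lay below all arsenic arrays, by a difference of -3.63 (SE 0.54, adjusted p = 0.00058, limma). Of 15 measured glutathione S-transferases none was higher, 5 were lower (33.3%, against 12.3% of all genes) and 10 were not called (median -0.36, against 0.07). GSTU22 (AT1G78340) differed by -2.28 and GSTL3 by -1.4, each with the arsenic arrays above the control arrays, whereas GSTU28 (AT1G53680, difference -1.72) read 7.92, 8.14 and 8.53 in control, 6.35, 6.82 and 7.08 in arsenic and 4.91, 5.75 and 4.43 in hypoxia. The arsenic arrays of GSTU28 lay below the control arrays and the hypoxia arrays lay below both. Without hypoxia 1, and likewise without hypoxia 3, 1 glutathione S-transferase was called higher.

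In the list of oxidative stress and detoxification, 4 of 11 genes were lower in hypoxia, 1 was higher and 6 were not called (45.5% called against 22.0% of all genes, median -0.44 against 0.07). UPOX (AT2G21640), which encodes a protein of mitochondria that oxidative stress induces, read 9.44, 8.71 and 9.97 in arsenic, 6.9, 6.42 and 6.33 in hypoxia and 4.32, 4.2 and 3.96 in control. The hypoxia arrays of UPOX lay between the other two groups, and the difference from arsenic was -2.82 (SE 0.28, adjusted p = 3.19e-05). NDB2 (AT4G05020) and NDB4 (AT2G20800) encode external NAD(P)H dehydrogenases, which feed the plant respiratory chain without pumping protons. NDB2 read 10.08, 9.48 and 10.09 in arsenic and 7.62, 6.6 and 6.32 in hypoxia (difference -3.04, SE 0.28, adjusted p = 2.04e-05), and NDB4 read 6.43, 5.15 and 6.35 and 2.95, 3.34 and 3.31 (difference -2.78). The control arrays of NDB2 (7.29, 7.23 and 7.04) overlapped the hypoxia arrays. UGT73B3 (AT4G34131, difference -2.7) and UGT73B2 (AT4G34135, -3.1), glucosyltransferases of flavonoids and stress metabolites, are close paralogs and were both lower. The zinc finger factor STZ was the higher gene (difference 1.51), a call lost without hypoxia 1 (adjusted p = 0.0744), hypoxia 2 (0.0622), arsenic 2 (0.0536) or arsenic 3 (0.0837), and the list then had no higher gene except without hypoxia 3 or arsenic 1. CHIL (AT5G05270), a chalcone isomerase-like protein of flavonoid synthesis, read 6.95, 7.57 and 8.08 in arsenic and 4.15, 4.1 and 4.16 in hypoxia (difference -3.4, SE 0.32).

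Among the lower genes without a symbol, AT1G60750 read 9.97, 8.24 and 9.89 in arsenic and 5.93, 4.49 and 4.98 in hypoxia (difference -4.23, SE 0.46). AT1G64590 read 10.92, 11.29 and 11.19 in arsenic, 5.44, 6.79 and 8.54 in hypoxia and 8.34, 8.23 and 8.25 in control, a difference of -4.2 (SE 0.56). The hypoxia arrays of AT1G64590 were spread widely, and hypoxia 3 lay above the controls.

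Genes of arsenic and phosphate handling were few among the genes described, with 2 of 21 and 3 of 45 list entries measured. Rows without a single annotated gene were not used, so this does not show which genes the array holds. HAC1 (AT2G21045), the arsenate reductase that limits arsenic accumulation, read 9.15, 9.74 and 9.75 in arsenic, 10.26, 10.76 and 10.4 in hypoxia and 10.21, 10.21 and 10.46 in control. It was higher in hypoxia by 0.92 (SE 0.21, adjusted p = 0.00756, limma), with the hypoxia arrays in the range of the controls or above and the arsenic arrays below both. OCT1 (AT1G73220), an organic cation and carnitine transporter, read 6.76, 6.87 and 6.84 in arsenic and 4.1, 3.79 and 3.97 in hypoxia. Its arsenic arrays lay close together, and the difference was -2.87 (SE 0.14, adjusted p = 1.25e-07). LPR1 (AT1G23010) and LPR2 (AT1G71040), the paired multicopper oxidases that arrest root growth at low phosphate, moved in opposite directions. LPR1 was lower in hypoxia (5.66, 6.77 and 6.01 in arsenic, 3.98, 3.9 and 4.31 in hypoxia, difference -2.08, SE 0.23) and LPR2 was higher (6.58, 6.4 and 6.52 in arsenic, 8.13, 7.53 and 7.46 in hypoxia, difference 1.21, SE 0.18). WRKY6, which represses phosphate export to the shoot, was not called (difference -0.13). In the sulfate, glutathione and phytochelatin list, 1 of 5 genes was lower, the ATP sulfurylase APS4 (difference -1.39), and APS3, SIR, GR and SDI2 were not called. The called share of that list was 20.0%, near the 22.0% of all genes. The nitrate transporter NRT2.5 was not called (difference -0.02), and its arrays read 6.12, 4.48 and 5.92 in arsenic and 5.31, 5.02 and 6.12 in hypoxia.

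Heat shock and chaperone genes were lower in hypoxia, with 5 of 9 genes of the list lower, 1 higher and 3 not called (median -1.44), against 12.3% of all genes lower. In the small heat shock family, which shares 1 gene with the list, 5 of 10 were lower, 1 was higher and 4 were not called (median -0.9). ROF2 (AT5G48570), a heat-induced co-chaperone of the immunophilin kind, read 9.6, 9.42 and 9.82 in arsenic and 8.36, 5.54 and 5.69 in hypoxia (difference -3.08, SE 0.53, adjusted p = 0.00154, limma). HSP17.8 (AT1G07400), a cytosolic small heat shock protein, read 9.16, 8.26 and 9.37 in arsenic and 7.58, 5.28 and 4.78 in hypoxia (difference -3.05, SE 0.58). In both genes hypoxia 1 stood well above the other two hypoxia arrays and below the arsenic arrays. HSP23.5 (AT5G51440), a mitochondrial small heat shock protein, differed by -2.12, the HSP70 partners Fes1A (AT3G09350) and Hop3 (AT4G12400) by -2.11 and -1.5, the heat stress factor DREB2C (AT2G40340) by -1.62 and HSA32, which sustains acquired heat tolerance, by -1.44. The call of Hop3 was lost without arsenic 3 (adjusted p = 0.0519).

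Hypoxia 1 was the highest of the 3 hypoxia arrays in all 10 lower genes of the list and family together. The median signal of these 10 genes was 7.1 in hypoxia 1, 5.08 in hypoxia 2 and 5.16 in hypoxia 3, against 8.25, 7.44 and 8.18 in the arsenic arrays and 3.82, 3.95 and 4.03 in the control arrays. Over all 2037 lower genes, hypoxia 1 was the highest hypoxia array in 704, hypoxia 2 in 625 and hypoxia 3 in 708. Without hypoxia 1, 7 of the 9 list genes and 7 of the 10 family genes were lower, and the medians were -1.69 and -1.48. ROF2 then differed by -4.0 (adjusted p = 2.7e-08) and HSP17.8 by -3.9 (3.87e-05). HSP17.6B-CI (AT2G29500) read 8.12, 7.9 and 8.34 in arsenic and 7.94, 4.78 and 4.81 in hypoxia, so hypoxia 1 overlapped the arsenic arrays, and its difference of -2.27 became -3.32 without that array. Its call was lost with the 6 arrays alone (adjusted p = 0.07) and without hypoxia 2 (0.0858), hypoxia 3 (0.0749) or arsenic 3 (0.0707). The higher gene, ATHSP22.0, read 1.76, 1.68 and 1.7 in arsenic and 2.31, 2.29 and 2.42 in hypoxia, which placed it among the 4137 dimmest genes.

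**Figure D3:**
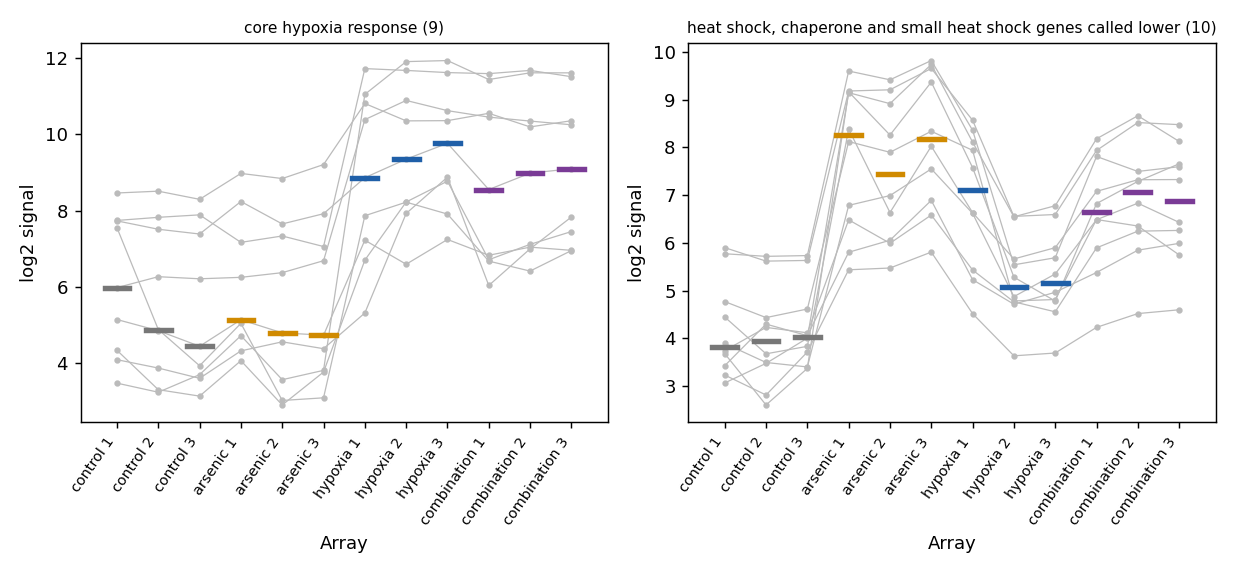
log2 signal (vertical axis) in each of the 12 arrays for the 9 core hypoxia genes (left) and for the 10 heat shock, chaperone and small heat shock genes called lower in hypoxia (right). Grey lines join the values of 1 gene and coloured bars are the medians over the genes of a panel. The right panel has its highest median bar among hypoxia arrays at hypoxia 1 (7.1) and no such step is seen in the left panel, where hypoxia 1 has the lowest bar of the hypoxia arrays.

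Called genes of the cytoskeleton, cell division and cell wall lists were all lower in hypoxia than in arsenate. TUB1 (AT1G75780), a beta-tubulin, read 7.47, 8.19 and 7.78 in control, 6.16, 6.48 and 6.71 in arsenic and 3.06, 4.48 and 3.37 in hypoxia. The groups did not overlap, and hypoxia was below arsenic by a difference of -2.82 (SE 0.4, adjusted p = 0.00039, limma). In the list of cytoskeleton and cell division, 6 of 11 genes were lower (54.5%, against 12.3% of all genes) and none was higher (median -0.67, against 0.07). Besides TUB1 these included the tubulin TUB5 (difference -0.99), the Aurora kinase AUR2 (AT2G25880, -1.19), which acts in cell division, and HTR12 (-0.58), the histone of centromeres. The tubulins TUB6 (-0.21) and TUB9 (0.27) were not called, so 2 of 8 measured tubulin genes were lower (25.0%).

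GH9C1 (AT1G48930), an endoglucanase of the kind that loosens walls, read 7.73, 7.83 and 7.75 in control, 7.09, 7.33 and 7.36 in arsenic and 3.19, 5.93 and 4.34 in hypoxia (difference -2.77, SE 0.46, adjusted p = 0.00125). Of the cell wall remodelling list 6 of 15 genes were lower (40.0%, against 12.3% of all genes), none was higher and 9 were not called (median -0.5), and without hypoxia 3 or without arsenic 3 the number lower was 2. The expansin-like gene EXLA1 read 6.51, 4.8 and 4.99 in arsenic and 8.23, 6.18 and 5.61 in hypoxia, with array 1 the highest in both groups. Array 1 was also the highest in control (8.14, 5.87 and 5.58) and in the combination (7.0, 5.7 and 4.82). The hypoxia and arsenic arrays overlapped and EXLA1 was not called (difference 1.24, adjusted p = 0.295), but with a replicate block it was called higher (adjusted p = 0.00302). EXPA15 (AT2G03090), an expansin, read 6.95, 6.51 and 6.9 in arsenic and 5.0, 5.04 and 4.93 in hypoxia (difference -1.79, SE 0.22). HRGP1 (AT3G54590), an extensin-like glycoprotein, read 6.01, 6.1 and 6.32 in arsenic and 1.58, 5.87 and 3.66 in hypoxia, where hypoxia 1 was lowest and hypoxia 2 close to the arsenic arrays (difference -2.44, adjusted p = 0.0287). Its difference was -1.38 without hypoxia 1, and its adjusted p was above 0.05 with the 6 arrays alone (0.0912) and without hypoxia 1 (0.0523), hypoxia 3 (0.0642) or any arsenic array (0.0583 to 0.0878). EXLB1, an expansin-like gene, read 8.08, 7.47 and 7.8 in arsenic, 6.76, 6.38 and 6.41 in hypoxia and 4.68, 4.8 and 4.78 in the combination, which was the lowest group.

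Of the 4 measured root hair genes 1 was lower and 3 were not called (25.0% called, near the 22.0% of all genes). EXPA7 (AT1G12560), an expansin of root hairs, read 7.74, 8.3 and 8.27 in control, 7.21, 7.0 and 7.17 in arsenic and 5.14, 5.9 and 5.11 in hypoxia (difference -1.74, SE 0.24, adjusted p = 0.000349). EXPA18 lay on the same side (difference -0.92, adjusted p = 0.0697) with arrays that did not overlap, and XTH26 did not differ in its mean by more than its error (difference 0.06, SE 0.4). The 3 root hair markers (EXPA7, EXPA18 and XTH26) had a median per array of 4.5 to 5.12 in arsenic, 4.08 to 5.78 in hypoxia and 6.59 to 7.03 in control. Whether a change in root hair cells had a part in the lower wall genes was not tested. Of 24 expansins 2 were higher and 5 lower (median 0.24), of 10 xyloglucan endotransglucosylase/hydrolases, which cut and rejoin wall glucans, 1 was higher and 2 lower, and of 25 trichome birefringence-like genes, which acetylate wall polysaccharides, none was higher and 4 were lower. The called shares of these 3 families were 29.2%, 30.0% and 16.0%, against 22.0% of all genes.

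**Figure D4:**
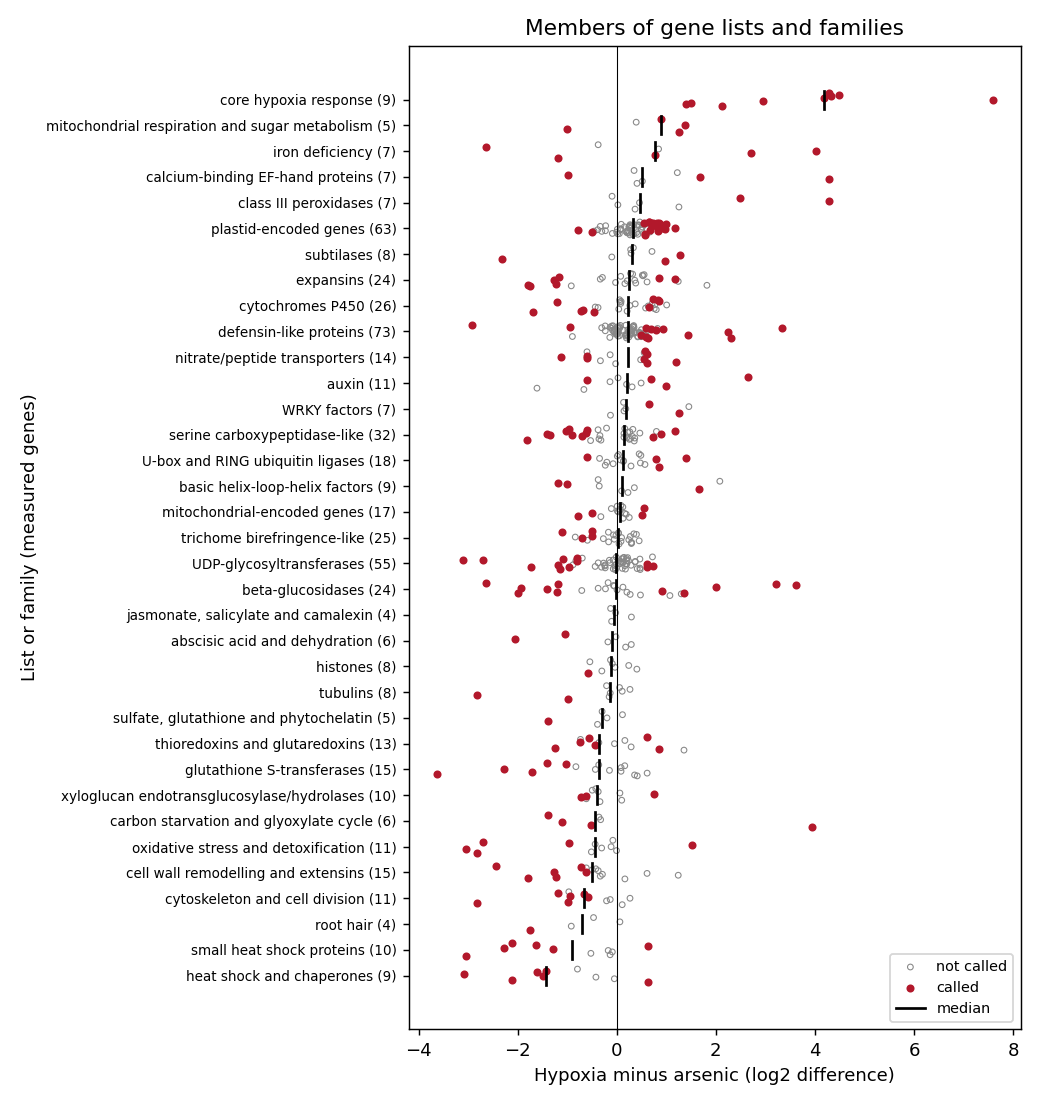
Hypoxia minus arsenic log2 difference (horizontal axis) of each measured member of the gene lists with at least 4 and the families with at least 7 measured genes, ordered by median. Filled points were called, open points were not, and black bars are medians. The core hypoxia list has its median bar at 4.19 with all 9 members called, and the heat shock list lies at the other end at -1.44.

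Transporter and enzyme families were mixed. Of 14 nitrate and peptide transporters 5 were higher and 3 lower (57.1% called against 22.0% of all genes), with AT1G33440 higher by 1.19 and NPF6.2 (AT2G26690), a nitrate transporter by its family, lower by a difference of -1.13. Of 55 UDP-glycosyltransferases, which attach sugars to small molecules, 3 were higher and 9 lower (21.8% called, near the share of all genes), and UGT80B1, a sterol glucosyltransferase, differed by -1.72. Of 32 serine carboxypeptidase-like genes 3 were higher and 9 lower (37.5% called). Of 26 cytochromes P450 4 were higher and 5 lower (34.6% called), the latter with CYP71B28 at a difference of -1.7. Of 8 subtilases, which are secreted proteases, 2 were higher and 1 was lower (37.5% called). The lower one was SBT3.5 (AT1G32940), with 7.4, 6.54 and 7.87 in arsenic and 5.88, 4.26 and 4.74 in hypoxia (difference -2.31, SE 0.38). In the abscisic acid and dehydration list 2 of 6 were lower (33.3% called), the dehydrins and cold genes LTI30 (difference -2.05, adjusted p = 0.0424) and KIN2 (-1.05, adjusted p = 0.047). Both calls were lost with quantile normalization again (0.0516 and 0.0659), without hypoxia 3 and without any 1 arsenic array. That of LTI30 was also lost without hypoxia 2 (0.11) and that of KIN2 without hypoxia 1 (0.132). Control 1 of LTI30 (8.63, 6.16 and 5.73 in control) lay with the arsenic arrays. FACT, the measured gene of the Casparian strip and suberin list, was not called (difference 0.16).

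Among the locus-coded genes that the reference table describes, AGL79 (AT1G30260), a MADS-box gene of the AGAMOUS-like kind, was higher by 1.91 and NDR1/HIN1-like 26 (AT5G53730) by 1.58. Nodulin Homeobox (AT4G03090) was lower by a difference of -1.05, fibrillin 1b (AT4G22240), a plastid lipid-associated protein, by -0.9 and the late embryogenesis abundant protein 27 (AT2G46140) by -0.84, a call lost without arsenic 3 (adjusted p = 0.053). The arrays of the 2 groups did not overlap in these 5 genes, as the choice of these genes required.

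Of 63 measured plastid-encoded genes, 18 were higher in hypoxia, 2 were lower and 43 were not called (31.7% called against 22.0% of all genes, median 0.33). Their median signal per array was 9.95 to 10.73. Of the 4137 brightest genes, a like share of 32.7% was called, but with 553 higher and 801 lower (median -0.07). petL, a cytochrome b6f subunit, read 8.75, 9.33 and 8.94 in arsenic and 10.08, 10.18 and 10.29 in hypoxia (difference 1.18, SE 0.18, adjusted p = 0.0007, limma). The control arrays of petL (10.04, 9.73 and 9.51) lay nearer the hypoxia arrays than the arsenic arrays. Of 17 mitochondrial genes 2 were higher and 2 lower. Without arsenic 3 the plastid counts were 10 and 1, and without hypoxia 3 they were 11 and 3.

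The combination arrays, which took no part in the difference, were then placed against the midpoint of the hypoxia and arsenic means. Both contrasts use the hypoxia and arsenic arrays, and their errors are uncorrelated only where the groups vary alike and arrays vary separately. The hypoxia arrays had the larger SD, and hypoxia and combination arrays of number 1 and of number 3 deviated together (r of 0.305 and 0.293 over genes), so the counts by side are a description. Over all genes 654 (3.95%) had a combination mean called off the midpoint, 269 above (1.63%) and 385 below (2.33%). Among the 1601 genes higher in hypoxia, the combination was called on the hypoxia side in 133 (8.31%) and on the arsenic side in 21 (1.31%). Among the 2037 genes lower in hypoxia it was called on the hypoxia side in 235 (11.5%) and on the arsenic side in 22 (1.08%). The remaining genes, 1447 and 1780, had a combination that could not be placed on either side at this number of arrays. Over all 1601 and 2037 genes, placed or not, the combination means lay on the hypoxia side in 1017 (63.5%) and 1222 (60.0%).

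Named genes showed each position. HUP9 read 11.43, 11.61 and 11.61 in the combination, at the hypoxia level and above the midpoint by 3.72 (adjusted p = 9.63e-06, limma). ICL read 9.16, 9.0 and 8.89, all above the highest hypoxia array. OCT1 (3.44, 3.69 and 3.48) and GSTU25 (4.45, 3.65 and 3.1) were on the low, hypoxia side, at -1.85 (adjusted p = 9.63e-06) and -2.05 (adjusted p = 0.0292) from the midpoint. UPOX (8.46, 8.13 and 7.92) lay between the single stresses and was not called off the midpoint (0.21, adjusted p = 0.728). ROF2, HSP17.8, HSP23.5 and Fes1A had combination means between the single stresses and were not called either. Their arrays were less apart: hypoxia 1 of ROF2 (8.36) and of Fes1A (8.57) lay above all combination arrays of that gene. HAC1 (9.62, 9.03 and 9.2) lay on the arsenic side, at -0.72 (adjusted p = 0.0434).

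The control arrays were placed in the same way, with 3561 genes (21.5%) off the midpoint, 2074 above (12.5%) and 1487 below (8.99%). Among genes higher in hypoxia, control was called on the arsenic side in 284 (17.7%) and on the hypoxia side in 172 (10.7%). Among genes lower in hypoxia, it was called on the arsenic side in 596 (29.3%) and on the hypoxia side in 332 (16.3%). Of the lower genes, TUB1 had its control mean on the arsenic side, 2.77 above the midpoint (adjusted p = 0.000122, limma). GSTU25 had it on the hypoxia side, at -2.46 from the midpoint (adjusted p = 0.00247).

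**Figure D5:**
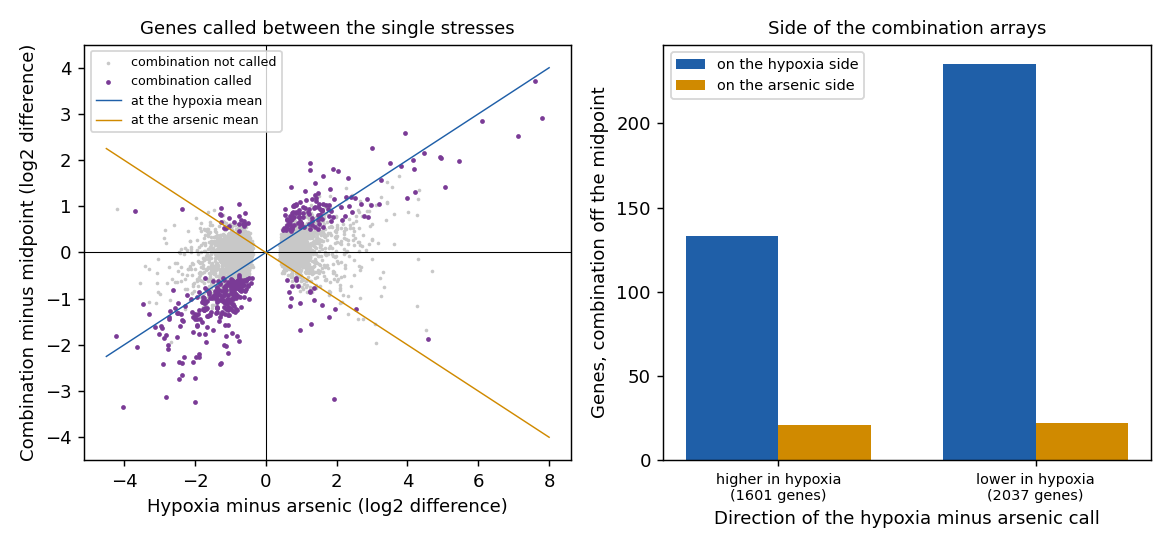
Left: for the 3638 called genes, combination minus the midpoint of hypoxia and arsenic (vertical axis, log2) against hypoxia minus arsenic (horizontal axis, log2), with purple points where the combination was called off the midpoint, and lines where it would equal the hypoxia or the arsenic mean. Right: numbers of such genes on each side, 133 and 21 among genes higher in hypoxia and 235 and 22 among genes lower in hypoxia.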

How the data were processed

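RNA of 12 root samples was extracted by lithium chloride precipitation and labelled with the GeneChip WT PLUS kit, per the labels' protocols. The authors deposited log2 signals per row, made with RMA, per the submitters' processing notes, which list the programs Transcriptome Analysis Console 3.1 and Expression Console (releases 1.4 and 1.4.1, Affymetrix). No transformation or filter was added here. The build used for the array design is not given in the sources used here, so no coordinates are printed.

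Of 38408 rows, 17481 had a gene in the probe annotation, 759 of these named several genes and 16722 named 1. RefSeq gene identifiers (TAIR10.1) matched 16574 of the last. Rows were merged by locus, with the row of highest mean over the 12 arrays kept for 148 genes with several rows, which left 16548 genes. A symbol was held in the tables for 1804 of these, and 22 more were given a published symbol beside the locus. Those 22 symbols could be checked only in part, so the locus identifies the gene. The rest have locus codes.

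R 4.3.3 and limma 3.58.1 (lmFit, then eBayes) fitted 1 mean per group to all 12 arrays, so that 4 groups share 1 estimate of the spread. Control and combination arrays enter that estimate and not the difference. Benjamini-Hochberg adjustment was made within each contrast, with a threshold of 0.05. The fit was also run on simulated data with independent errors of the same spread in every group. The hypoxia arrays had a larger SD than that setting allows, so no conclusion is drawn from the simulated run. Lists were described by counts and medians, to be read against those of all genes, without a test. Of 837 distinct list entries 120 were measured, that is, had a row annotated with that gene alone. Named were the 12 leading genes with a symbol in each direction, the 5 in each direction that the tables describe among locus codes, up to 4 members of each long list, all members of short ones, and 6 genes fixed by name. The leading genes and the described locus codes had to be called, with hypoxia and arsenic arrays that did not overlap. The leading locus codes (AT3G29970, AT2G17850, AT1G60750, AT1G64590) and some list members were added after their values were seen. The members, lists and families were chosen with earlier results of these data known. With 3 arrays a group, their number limits the precision. Paralogs can share probes. Replicate numbers were not taken to pair the arrays, and the alternatives were other sets of arrays, block, weights, centring, normalization, variance prior, filter and row choice.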

Additional observations from a re-analysis of the deposited data

Results flagged for a closer look

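The rows without a gene in the probe annotation, which entered no comparison above, also differed between hypoxia and arsenate. Of 20927 such rows, 1123 (5.37%) were higher in hypoxia and 2777 (13.3%) were lower (limma, Benjamini-Hochberg over all 38408 rows). In the same fit, 1340 rows with 1 gene were higher (8.01%) and 1828 were lower (10.9%). The called shares were close, at 18.6% without a gene, 18.9% with 1 gene and 18.8% over all rows. The split by direction differed: 28.8% of the called rows without a gene were higher, against 42.3% of those with 1 gene. Over all rows without a gene the median difference was -0.13, against 0.07 for rows with 1 gene. What these rows measure is not given in the sources used here, and the cause was not tested.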

How the results depend on the processing

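The counts of genes were 1601 higher and 2037 lower. They moved by over 1.5 times with a minimum difference of 1 (581 and 696) and without arsenic 3 (908 and 1260). Over all 38408 rows of the table, 2533 rows were higher (6.59%) and 4693 lower (12.2%). Those are counts of rows, and the shares among the 16548 genes were 9.67% and 12.3%. Among genes, leaving out 1 array gave 908 to 1590 and 1260 to 1830. Only the 6 arrays gave 1113 and 1513, and 2543 of their 2626 calls were also called with 12 arrays. With a replicate block the counts were 1711 and 2064. Hypoxia and arsenic arrays of 1 number correlated in their deviations at r of 0.08, 0.00 and 0.05. Over all pairs of groups the same-number r ran from -0.079 (hypoxia 2 with combination 2) to 0.305 (hypoxia 1 with combination 1). The different-number r ran from -0.331 (hypoxia 1 with combination 3) to 0.162 (control 2 with hypoxia 3). Whether arrays of 1 number share an effect was not tested, and the main fit did not take the numbers as pairs. With the block the named genes EXLA1, EXPB2, WRKY41, BHLH92, GRX480 and CML37 became called higher, EXPA18, AUR3 and GH3.3 became called lower, and AT1G27040 and WRKY29 lost their call. With re-centred arrays 1824 were higher and 1841 lower.

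For the combination among genes higher in hypoxia (133 on the hypoxia side, 21 on the arsenic side) array weights gave 228 and 66, and leaving out 1 array 78 to 135 and 10 to 72. Among genes lower in hypoxia (235 and 22) weights gave 389 and 81, and leaving out 1 array 133 to 237 and 10 to 51. Of the values with 1 array left out, the highest arsenic-side ones (72 and 51) came without hypoxia 1. With a replicate block the combination counts were 155 and 29, and 258 and 24. For control among genes higher in hypoxia (172 hypoxia side, 284 arsenic side) re-centred arrays gave 483 on the arsenic side, and leaving out 1 array 91 to 188 and 185 to 343. Among genes lower in hypoxia (332 and 596) re-centred arrays gave 417 and 479, so the sides were closer in number, and leaving out 1 array gave 201 to 331 and 367 to 566. No called difference of a named gene changed sign under any alternative run. Some differences that were not called did, such as LBD16 (0.02, and -0.12 without hypoxia 1), as did a few family medians, such as that of the serine carboxypeptidase-like genes (0.14, and -0.34 with the filter on dim genes). Of 127 called named genes 95 kept their call in every run that tested them, and none of the 24 leading genes lost it. The filter on dim genes left some named genes untested, ATHSP22.0 among them. The 24 were chosen in these same data for large differences and arrays that did not overlap, which favoured that outcome. The cause of the shifts under the alternative runs was not tested.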
